A study of Homo sapiens with 31 samples.

Results

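The comparison was between libraries titled NC at 6 h and libraries titled NC at 0 h of an actinomycin D series. It covered 4 of the 31 samples of the study, 2 at each time, taken by their titles. All carried the genotype label WT and the cell label PANC-1, a line established from a human pancreatic carcinoma. The 6 h samples were labelled as treated with actinomycin D for 6 h, and the 0 h samples as treated for 0 h. The labels do not expand NC. The whole actinomycin D set held 20 libraries of polyA RNA, 2 at each of 0, 2, 4, 6 and 8 h under the NC label and under a KHSRP knockout label (KO). The study's design text gives the effect of KHSRP on mRNA lifetime as the question of this set.

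Actinomycin D binds DNA and blocks transcription, so that RNA made before its addition is lost at the rate at which each transcript decays. Immediate early mRNAs such as FOS, and many mRNAs of transcription factors and other regulators, decay fast, whereas most mRNAs of metabolic enzymes and ribosomal proteins decay slowly. Levels in CPM, the reads of a gene scaled to a fixed library total, are shares of a library. A gene that loses RNA more slowly than the rest therefore rises on this scale, and the RNA amount per cell cannot be read from it. In bulk libraries, fewer cells of a type and less RNA per cell cannot be told apart.

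The libraries went against their labels in 2 respects, which precede the results. First, short-lived transcripts were not highest at 0 h. FOS, an AP-1 subunit, had mean levels of 6.80, 5.58, 527, 7.45 and 5.29 CPM under the NC label at 0, 2, 4, 6 and 8 h. MYC had 25.8, 32.4, 296, 25.2 and 23.7 CPM at those times. Both were thus highest in the libraries labelled 4 h and similar at 0 h and 6 h. Under the KO label the FOS level was 1.15 and 0.537 CPM at 0 h and 65.4 and 65.7 CPM at 6 h. Times are given below as labelled, and a change from 0 h to 6 h is one between libraries with these labels. Second, CDKN2A, which PANC-1 is known to lack by deletion, had 4779 and 4466 counts in the 0 h libraries and 4610 and 5201 in the 6 h libraries. It had 0 counts in all libraries labelled KO.

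Markers of the labelled tissue were also mixed in the 4 NC libraries. The ductal keratins KRT7, KRT8 and KRT18 were abundant, with 16467 to 18508 counts of KRT7, 43293 to 50368 of KRT8 and 27913 to 33760 of KRT18. KRT19 had 4 to 15 counts, EPCAM 10 to 19, CDH1 4 to 16 and PDX1 0. The mesenchymal marker VIM had 30960 to 33850 counts. Of the markers of other cell types, PTPRC, CD3E and LYZ of 9 immune genes, PDGFRA of 11 fibroblast genes, KDR, CLDN5 and EMCN of 7 endothelial genes and 9 of 10 acinar and endocrine genes had 0 counts in all 4 libraries. Others had counts: the pericyte and fibroblast gene PDGFRB 542 to 598, COL1A1 190 to 223 and ACTA2 28 to 61, the macrophage genes CD68 225 to 348 and CSF1R 40 to 71, and the endothelial gene CDH5 49 to 70. NC and KO libraries were set apart by more than KHSRP: 100 genes stood at 10 CPM or more in every NC library and under 0.5 CPM in every KO library, and 117 genes showed the reverse. A difference between the labels and an effect of KHSRP cannot be told apart here. KHSRP itself was at 440 and 453 CPM at 0 h and 438 and 440 CPM at 6 h, a log2 change of -0.02 (SE 0.04, adjusted p = 0.881).

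Total counts of the 4 libraries were 22253494 to 25716479. The 37 mitochondrial genes were listed at 0 in all 20 libraries. Replicates of each time differed, with a chi-square per degree of freedom of 3.90 at 0 h and 4.11 at 6 h, and all 4 were kept as separate samples. Among genes with 1 to 20 counts, 62.0% and 62.0% had even values in the 0 h libraries and 61.1% and 60.4% in the 6 h libraries. Counts may therefore not be independent reads, and how far the replicates exceed counting noise was not tested. No label says that replicates were separate cultures, so the p-values rest on a spread that may be only technical. Of 43682 listed genes, 17715 passed the filter on low counts and were tested with edgeR's quasi-likelihood F test, in a fit that took its spread from all 20 libraries. Adjusted p-values are Benjamini-Hochberg values over those genes, with a threshold of 0.05.

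Chaperone genes led the rises, and the core promoters of those that carry a heat shock motif are shown first. Heat shock factors bind inverted repeats of the 3-base unit GAA with spacer bases, and each pattern marked here holds 2 such units. In RefSeq promoters (GRCh38.p14, the 250 bases before the start), GAANNTTC or TTCNNGAA is in capitals in these 4 genes, and the motifs were chosen after the values were seen. HSPA1A lies at chr6:31815293-31815542 (plus strand), HSPA1B at chr6:31827488-31827737 (plus strand), HSPA8 at chr11:123062137-123062386 (minus strand) and HSPB8 at chr12:119178681-119178930 (plus strand).
HSPA1A: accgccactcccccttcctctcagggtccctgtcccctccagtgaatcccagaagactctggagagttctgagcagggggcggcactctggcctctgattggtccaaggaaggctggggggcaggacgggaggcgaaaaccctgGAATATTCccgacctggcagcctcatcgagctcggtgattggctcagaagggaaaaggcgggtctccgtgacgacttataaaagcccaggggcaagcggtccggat
HSPA1B: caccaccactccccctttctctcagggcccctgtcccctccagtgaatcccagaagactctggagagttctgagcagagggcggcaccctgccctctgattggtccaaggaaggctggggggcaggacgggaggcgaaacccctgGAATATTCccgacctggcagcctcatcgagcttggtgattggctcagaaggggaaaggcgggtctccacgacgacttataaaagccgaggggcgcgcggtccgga
HSPA8: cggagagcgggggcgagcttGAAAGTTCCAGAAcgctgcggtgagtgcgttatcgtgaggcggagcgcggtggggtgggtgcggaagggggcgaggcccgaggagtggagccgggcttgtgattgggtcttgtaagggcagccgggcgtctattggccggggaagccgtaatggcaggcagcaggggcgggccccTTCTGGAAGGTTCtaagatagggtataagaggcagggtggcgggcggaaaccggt
HSPB8: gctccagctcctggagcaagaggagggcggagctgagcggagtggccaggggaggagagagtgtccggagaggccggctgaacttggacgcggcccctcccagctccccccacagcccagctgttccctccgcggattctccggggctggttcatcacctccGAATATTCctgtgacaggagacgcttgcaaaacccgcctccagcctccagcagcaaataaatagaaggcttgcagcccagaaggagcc
GAANNTTC was present in these promoters and in 5.85% of all 27305 promoters of the table, 4.09% of those of genes tested, 3.97% of genes that rose and 5.32% of genes that fell. TTCNNGAA was present in HSPA8 and in 6.72%, 5.26%, 3.31% and 4.79% of these sets. Among rises as a whole neither motif had a higher share than among all genes tested. The 2 patterns can overlap each other, and each reads the same on both strands. Of the 9 chaperone genes that rose, 4 held GAANNTTC, and of 3 that fell and had a promoter in the table, 0 held it. A match describes these letters and is not a site shown to be bound.

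Between NC 0 h and NC 6 h, 553 genes were higher at 6 h (3.12% of those tested) and 230 were lower (1.30%), 783 in all (4.42%). Without any 1 of the 4 libraries the total was 328 to 351, as 261 to 279 higher and 58 to 81 lower. Changes were small: the median was 0.43 on the log2 scale for the higher genes and -0.20 for the lower genes. Of the 783 genes called, 62 changed by at least 1 on the log2 scale, and 4 of those with a mean of at least 10 CPM did so: HSPA1A, HSPA1B, TMEM115 and XBP1. The ranges of the 2 groups did not overlap in 8021 genes (45.3%), so separate ranges alone carried little weight with 2 libraries a group. The split into higher and lower depended on the scaling. With DESeq2's size factors in edgeR (RLE) it was 481 higher and 576 lower, with ribosomal protein genes as the scale 1546 and 36, and on the authors' log2 molecule scale 43 and 6909 of 13988 genes. The median of all genes was -0.51 on the molecule scale and 0.11 with ribosomal scaling. Directions below are thus relative to the bulk of the library. Counts of called list members below stand against 3.12% of all genes tested higher and 1.30% lower. These shares are not matched for level, and falls were more frequent among abundant genes. Of 8994 genes of at least 10 CPM, 465 rose and 205 fell. In the highest of 5 bins of such genes by level (1701 genes, 130 to 8096 CPM), 54 rose and 134 fell.

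**Figure D1:**
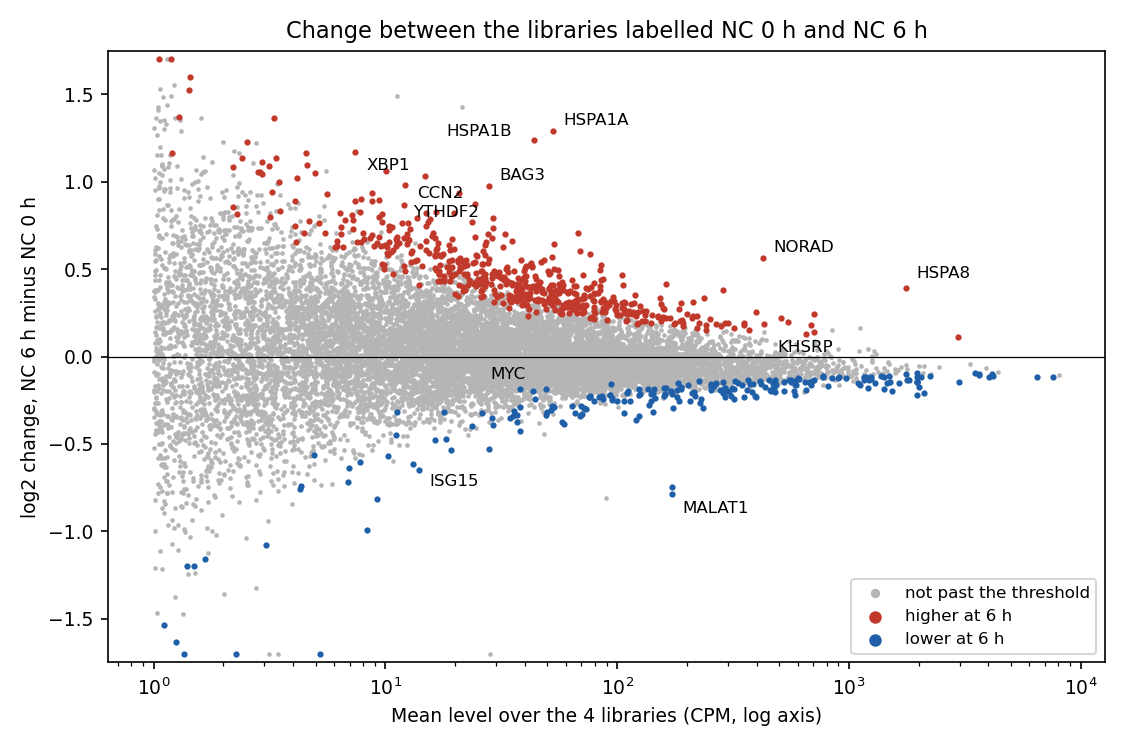
Each point is a gene with a mean of at least 1 CPM over the 4 libraries; the x axis is that mean (CPM, log axis) and the y axis the log2 change from NC 0 h to NC 6 h, with values beyond 1.7 drawn at 1.7. HSPA1A (1.29), HSPA1B (1.24) and MALAT1 (-0.79) stand apart from genes of like level, and most genes called lower have small changes at high levels.

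Heat shock proteins and their cochaperones, which fold and refold proteins, gave the largest share of calls: 9 of 25 rose and 4 fell, against 3.12% and 1.30% of all genes. The median of the list was 0.03, beside 0.00 over all genes. HSPA1A and HSPA1B encode the stress-inducible HSP70 and are near-identical copies, so reads could be split between them; the deposited annotation places each at several loci, and no coordinate is given. HSPA1A stood at 29.4 and 31.7 CPM at 0 h and 75.6 and 73.8 CPM at 6 h. The groups did not overlap, and the log2 change was 1.29 (SE 0.08, adjusted p = 4.09e-14). HSPA1B stood at 26.6 and 25.5 CPM at 0 h and 66.7 and 56.5 CPM at 6 h, a change of 1.24 (SE 0.10, adjusted p = 2.73e-12). The cochaperone BAG3, which binds HSP70 (hg19 chromosome 10, 121410892 to 121437331, plus strand), went from 17.9 and 19.9 to 34.8 and 39.5 CPM, a change of 0.98 (SE 0.12, adjusted p = 1.6e-05).

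The constitutive HSC70 gene HSPA8, refolding partner of many clients and far more abundant, rose from 1506 and 1541 CPM to 1997 and 1995 CPM. It was named after its values were seen, and its 2 libraries per time differed by far less than the times did (0.39, SE 0.03, adjusted p = 1.82e-12). The HSP40 genes DNAJB4 (0.82) and DNAJB1 (0.63), which deliver clients to HSP70, rose with it, as did the transcription factor gene HSF2 (0.63), the small heat shock protein gene HSPB8 (0.35) and the HSP110 gene HSPH1 (0.19). The list members that fell were of other chaperone families, but DNAJC4, a DNAJ family gene outside the list, also fell (-0.57, adjusted p = 0.0478). HSP90AA1, a cytosolic HSP90, went from 3748 and 3803 to 3535 and 3508 CPM (-0.10, adjusted p = 0.0319). The endoplasmic reticulum HSP90 gene HSP90B1 (-0.20), the mitochondrial HSP60 gene HSPD1 (-0.15) and the HSP90 cochaperone gene FKBP4 (-0.21) also fell. The falls within the list were not kept with ribosomal scaling, where 13 of 25 rose and 0 fell, and on the molecule scale 3 rose and 16 fell. Without 1 library at a time, 5 to 7 rose and 1 to 3 fell, with the fewest rises without NC 0 h replicate 2 and the fewest falls without NC 6 h replicate 2.

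XBP1, a transcription factor of the unfolded protein response (hg19 chromosome 22, 29190548 to 29196557, minus strand), was the member of its list that rose most. Its RefSeq promoter is shown because it holds, in capitals, the endoplasmic reticulum stress element (CCAAT and CCACG with 9 bases between them), at chr22:28800570-28800819 (minus strand) in GRCh38.p14.
XBP1: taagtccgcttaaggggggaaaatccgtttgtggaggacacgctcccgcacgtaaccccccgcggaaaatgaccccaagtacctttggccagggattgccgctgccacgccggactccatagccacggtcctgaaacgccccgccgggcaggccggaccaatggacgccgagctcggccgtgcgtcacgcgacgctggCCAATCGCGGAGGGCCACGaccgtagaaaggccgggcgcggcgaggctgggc
The element, searched on both strands and chosen after the values were seen, is in 22 of 27305 promoters (0.0806%), in 1 of 453 promoters of genes that rose (0.221%) and in 2 of 188 of genes that fell (1.06%), among them HSP90B1. XBP1 stood at 9.37 and 10.1 CPM at 0 h and 19.3 and 20.5 CPM at 6 h (1.03, SE 0.13, adjusted p = 1.28e-06). In the integrated stress and unfolded protein response list, 4 of 30 genes rose and 2 fell, against 3.12% and 1.30% of all genes tested. EIF2AK3, the sensor kinase PERK (0.67), HERPUD1, of endoplasmic reticulum degradation (0.66), and CEBPG, a bZIP factor (0.41), rose. The disulfide isomerase genes PDIA4 (-0.20) and PDIA6 (-0.14) fell, but not with ribosomal scaling, where 6 rose and 0 fell. Without 1 library at a time 2 or 3 rose and 1 to 3 fell, with 2 rises without NC 0 h replicate 2 or NC 6 h replicate 2.

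Immediate early genes are the textbook short-lived mRNAs. Of 34, 3 rose and 0 fell between these labels, against 3.12% and 1.30% of all genes tested. Their median was 0.09. CCN2, a matricellular protein gene and YAP target (hg19 chromosome 6, 132269316 to 132272512, minus strand), went from 17.1 and 17.3 to 33.8 and 29.4 CPM (0.87, SE 0.08, adjusted p = 1.58e-09). CCN1, its paralog, rose by 0.74 and the AP-1 gene JUND by 0.41. FOS stood at 7.22 and 6.38 CPM at 0 h and 8.05 and 6.85 CPM at 6 h, so the groups overlapped (0.13, adjusted p = 0.733). JUN had 12.6 and 17.4 CPM at 0 h and 16.3 and 13.6 CPM at 6 h, and its groups overlapped as well (-0.01). MYC (-0.03, adjusted p = 0.956) and IER2 (0.15, adjusted p = 0.535) did not pass either. Of 25 AU-rich chemokine and cytokine transcripts and of 27 p53 targets, 0 passed in either direction with edgeR; at an unadjusted p under 0.05 there were 4 of each list, 2 higher and 2 lower cytokine genes and 4 higher p53 targets, and DESeq2 called 1 cytokine gene lower and 0 p53 targets.

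Other lists of regulators gave 1 or 2 calls each. MCL1, an antiapoptotic BCL2 family gene, went from 117 and 112 to 127 and 134 CPM (0.19, adjusted p = 0.0197), and its relative BCL2L1 rose by 0.23. ERRFI1, a feedback inhibitor of EGFR, rose by 0.65, alone among 19 ERK feedback genes. In the KLF and SP list SP1 (0.39) and KLF13 (0.25) rose, the first from 63.3 and 66.7 to 85.9 and 84.3 CPM. MGA, a MAX partner (0.37), and RELA, the p65 subunit of NF-kappaB (0.25), were the sole calls of their lists of 18 and 21. Of 60 KRAB zinc finger genes of chromosome 19, 1 rose (ZNF146, 0.32), against 3.12% of all genes tested. With 1 library left out in turn, RELA, BCL2L1 and KLF13 passed in 0 of 4 runs, MGA (without NC 6 h replicate 2) and MCL1 (without NC 6 h replicate 1) in 1, ERRFI1 and ZNF146 in 2 and SP1 in 4. With RLE scaling RELA, MCL1 and BCL2L1 did not pass. On the molecule scale MCL1, BCL2L1, SP1, KLF13, MGA, RELA and ZNF146 had values below 0.

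**Figure D2:**
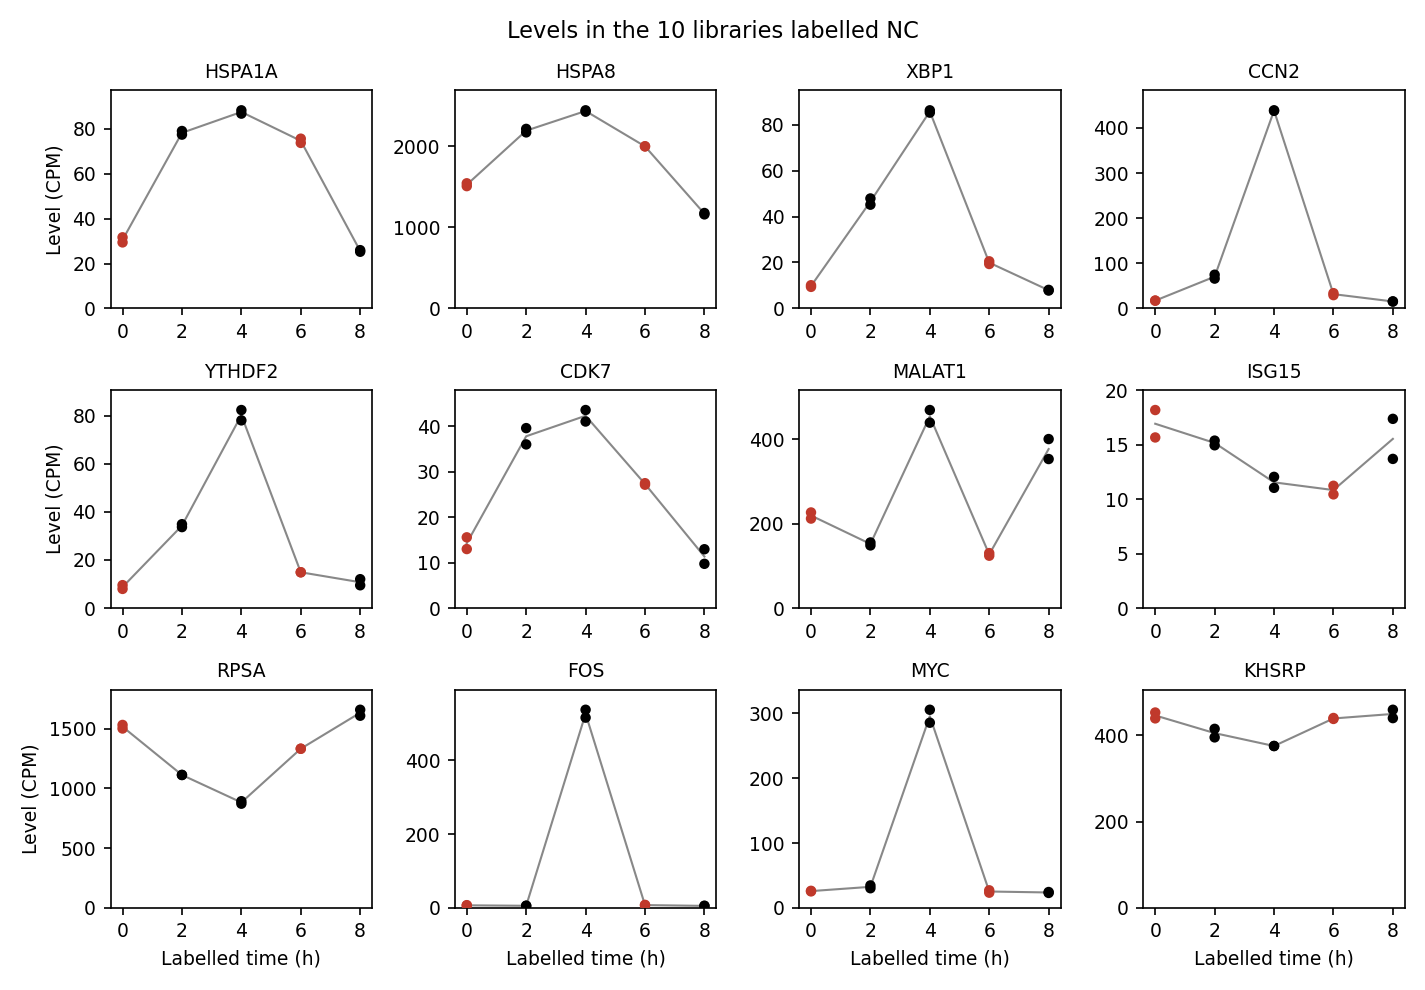
Levels of 12 genes (CPM, y axis from 0) in each of the 10 libraries labelled NC by labelled time (h, x axis); the 0 h and 6 h libraries are red, the others black, and grey lines join the means of each time. HSPA1A, HSPA8, XBP1, CCN2, YTHDF2 and CDK7 were above 0 h at 6 h and highest at 4 h, and FOS and MYC were high at 4 h alone.

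Genes that act on mRNA itself made up the next group. Of 22 m6A writers, erasers and readers, 6 rose and 0 fell, against 3.12% and 1.30% of all genes tested. Their median was 0.18. The cytoplasmic reader gene YTHDF2, whose protein recruits deadenylases to methylated mRNA (hg19 chromosome 1, 29063136 to 29096287, plus strand), went from 9.55 and 7.98 to 14.9 and 14.9 CPM (0.76, SE 0.13, adjusted p = 0.000128). YTHDF1, another reader, went from 20.98 and 20.89 to 32.3 and 32.9 CPM (0.64, adjusted p = 0.000311). The demethylase gene ALKBH5 (0.36), the writer complex gene ZC3H13 (0.33) and the reader genes YTHDF3 (0.32) and YTHDC1 (0.29) also rose. Without 1 library at a time 3 to 5 of the 22 rose, with 3 without NC 0 h replicate 2. On the molecule scale 0 rose and 9 fell, whereas YTHDF2 kept a value of 0.34.

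Among AU-rich element and related binding proteins, PUM2, which binds Pumilio elements and promotes decay, went from 37.97 and 31.12 to 50.2 and 49.8 CPM (0.53, SE 0.09, adjusted p = 0.00015). PCBP1, a poly(C)-binding protein, changed by 0.16 (adjusted p = 0.0298). In the decay machinery 4 of 48 rose and 1 fell, against 3.12% and 1.30% of all genes tested. The CCR4-NOT deadenylase gene CNOT8 (0.46), the decapping cofactor genes DDX6 (0.32) and LSM14A (0.19) and the exosome gene EXOSC2 (0.24) rose, and the deadenylase gene PAN2 (-0.40) fell. Without NC 6 h replicate 1 none of the 48 passed, and without each other library 1 rose and 0 fell; CNOT8, EXOSC2 and PAN2 passed in 0 of these 4 runs. With RLE scaling 2 rose and 1 fell. PCBP1 passed in 0 of the runs as well, and PUM2 in all 4. Of 23 SR protein, CLK kinase and splicing regulator genes 7 rose and 0 fell, led by SRSF4 (0.44) and SRSF5 (0.44), which select splice sites. SRSF5 went from 76.6 and 70.7 to 102 and 98.2 CPM. Without 1 library at a time 3 to 6 of them rose, the fewest without NC 6 h replicate 1, and on the molecule scale 0 rose and 16 fell.

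CDK7, the kinase of TFIIH and of the CDK-activating complex, led the transcription machinery. It stood at 13.0 and 15.6 CPM at 0 h and 27.2 and 27.5 CPM at 6 h (0.94, SE 0.13, adjusted p = 1.2e-05). In that list of 31 the polymerase II subunit gene POLR2D rose (0.39) and POLR2C fell (-0.21); POLR2C passed in 0 of 4 runs without 1 library, and POLR2D not without NC 0 h replicate 1 or NC 6 h replicate 2. G1/S and DNA replication genes rose in 9 of 38 cases and fell in 0, against 3.12% and 1.30% of all genes tested. MCM10, a replication initiation factor, went from 21.7 and 22.4 to 36.7 and 34.1 CPM (0.68, SE 0.13, adjusted p = 0.000604). The licensing factor gene CDC6 (0.49), CDT1 (0.44) and the flap endonuclease gene FEN1 (0.42) also rose. So did the phosphatase gene CDC25A (0.63, SE 0.17, adjusted p = 0.0264) and the GINS subunit gene GINS3 (0.73, SE 0.22, adjusted p = 0.0467). These 2 changes were less steady, at 0.43 to 0.84 and 0.54 to 0.90 with a library left out, beside 0.63 to 0.73 for MCM10. With a library left out 3 to 5 of the 38 rose, the fewest without NC 0 h replicate 1. Of 40 G2/M genes 3 rose and 3 fell, among them the spindle gene FAM83D (0.55), the kinesin gene KIF23 (0.33), BIRC5 (-0.23) and TPX2 (-0.19). Without NC 0 h replicate 1, 0 of them rose and 2 fell, and with ribosomal scaling 17 rose and 0 fell.

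MALAT1, a nuclear long noncoding RNA retained in speckles (hg19 chromosome 11, 65265209 to 65273987, plus strand), fell more than any other gene of at least 10 CPM that passed. It stood at 226 and 212 CPM at 0 h and 130 and 124 CPM at 6 h (-0.79, SE 0.05, adjusted p = 6.09e-14). TALAM1, annotated antisense to it (65266783 to 65274903, minus strand), moved with it (-0.75), but strand use in counting is not stated and reads of the 2 cannot be told apart. MALAT1 did not follow labelled time: its means were 152 CPM at 2 h, 454 at 4 h and 377 at 8 h. Of 28 long noncoding RNAs 3 rose and 1 fell, against 3.12% and 1.30% of all genes tested. NORAD, a cytoplasmic RNA that binds Pumilio proteins, went from 346 and 343 to 511 and 506 CPM (0.56, SE 0.04, adjusted p = 1.82e-12). NEAT1, the scaffold of paraspeckles (0.24), and TUG1 (0.20) changed less, and on the molecule scale the values of all 3 were below 0. TUG1 passed in 0 of 4 runs without 1 library.

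The other falls above 10 CPM were smaller. ISG15, an interferon-induced ubiquitin-like modifier, went from 18.2 and 15.7 to 11.2 and 10.5 CPM (-0.65, SE 0.10, adjusted p = 8.95e-05), the sole call among 36 interferon-stimulated genes. HSD17B8 (-0.62), DNAJC4 (-0.57), the ciliary gene IFT140 (-0.54), SLC43A2 (-0.53), CORO6 (-0.48), TSTD2 (-0.47) and the centrosomal gene CEP70 (-0.43) also fell. Of these only ISG15 remained past the threshold with each of the 4 libraries left out in turn. The rises not yet named were TMEM115, a Golgi membrane protein gene (1.06), VPS18, of endolysosomal tethering (0.98), MFSD5 (0.87), TNFRSF1A, a TNF receptor (0.83), and ATG101, of autophagy initiation (0.82). All 5 remained past the threshold in each of those 4 runs.

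Genes of abundant housekeeping mRNAs lay below 0 by a little. Of 78 cytosolic ribosomal protein genes 0 rose and 16 fell, against 3.12% and 1.30% of all genes tested, and 4 had a positive value. The median was -0.11, which became 0.00 with 0 calls when those genes themselves set the scale. Abundant genes as a whole also lay below 0: of 1701 genes at 130 to 8096 CPM, 134 fell and 54 rose, with a median of -0.06. RPSA, of the small subunit (hg19 chromosome 3, 39448211 to 39454033, plus strand), went from 1530 and 1500 to 1331 and 1331 CPM (-0.19, SE 0.03, adjusted p = 0.000165). RPLP0, of the large subunit stalk, went from 2105 and 2166 to 1876 and 1905 CPM (-0.18). With 1 library left out 3 to 5 of the 78 fell, with 3 without NC 0 h replicate 2 or NC 6 h replicate 2; with RLE scaling 42 fell. Of 41 nuclear oxidative phosphorylation genes 0 had a positive value and 1 fell, ATP5F1B (-0.10), and the median of -0.10 became 0.01 with ribosomal scaling. With RLE scaling 9 fell, with DESeq2 14, in a fit of the 2 groups alone 8, and with any 1 library left out 0. GAPDH went from 3770 and 3739 to 3507 and 3487 CPM (-0.10, adjusted p = 0.0166; 0.01 with ribosomal scaling), and ACTB (-0.10) did not pass.

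The series title names FAK signalling, so adhesion genes were listed, and these lists were chosen on the study's own account. Of 19 integrin subunits 0 rose and 4 fell, against 3.12% and 1.30% of all genes tested. The 4 were ITGB4 (-0.45), ITGA3 (-0.23), ITGA6 (-0.16) and ITGB1 (-0.11). ITGA3 went from 196 and 197 to 162 and 173 CPM. With 1 library left out 1 or 2 of them fell, with 1 without NC 0 h replicate 2 or NC 6 h replicate 2, and with ribosomal scaling 1 fell. Among FAK and its partners 5 of 39 rose and 1 fell. The adaptor genes CRK (0.44), CRKL (0.33) and BCAR1 (0.43), the exchange factor gene ARHGEF7 (0.54) and the kinase gene ROCK2 (0.21) rose, and CAV1, of caveolae, fell (-0.19). CRK went from 73.0 and 72.4 to 93.7 and 103 CPM. With 1 library left out 2 or 3 of the 39 rose, with 2 without each library other than NC 0 h replicate 2, and on the molecule scale 0 rose and 25 fell. Of 27 collagens and laminins 0 passed with edgeR, 8 had an unadjusted p under 0.05 (2 higher, 6 lower), and DESeq2 called 4 lower.

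Of the marker lists, VIM (-0.12) and AXL (-0.18) fell among 8 mesenchymal genes, and KRT8 fell (-0.12) among 10 ductal genes. SOX9, a ductal transcription factor gene, had 26 and 10 counts at 0 h and 6 and 2 at 6 h, too few for a fold. Of 34 hypoxia and glycolysis genes 2 rose, EGLN1 (0.34) and LDHA (0.11), and 2 fell, GAPDH and ENO1 (-0.09). VIM, GAPDH and ENO1 passed in 0 of 4 runs without 1 library, AXL and LDHA in 1 and KRT8 in 2. SQLE (0.39) was the sole call among 27 cholesterol synthesis genes, and 0 of 18 replication-dependent histone genes passed with edgeR or DESeq2, with 1 lower at an unadjusted p under 0.05.

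**Figure D3:**
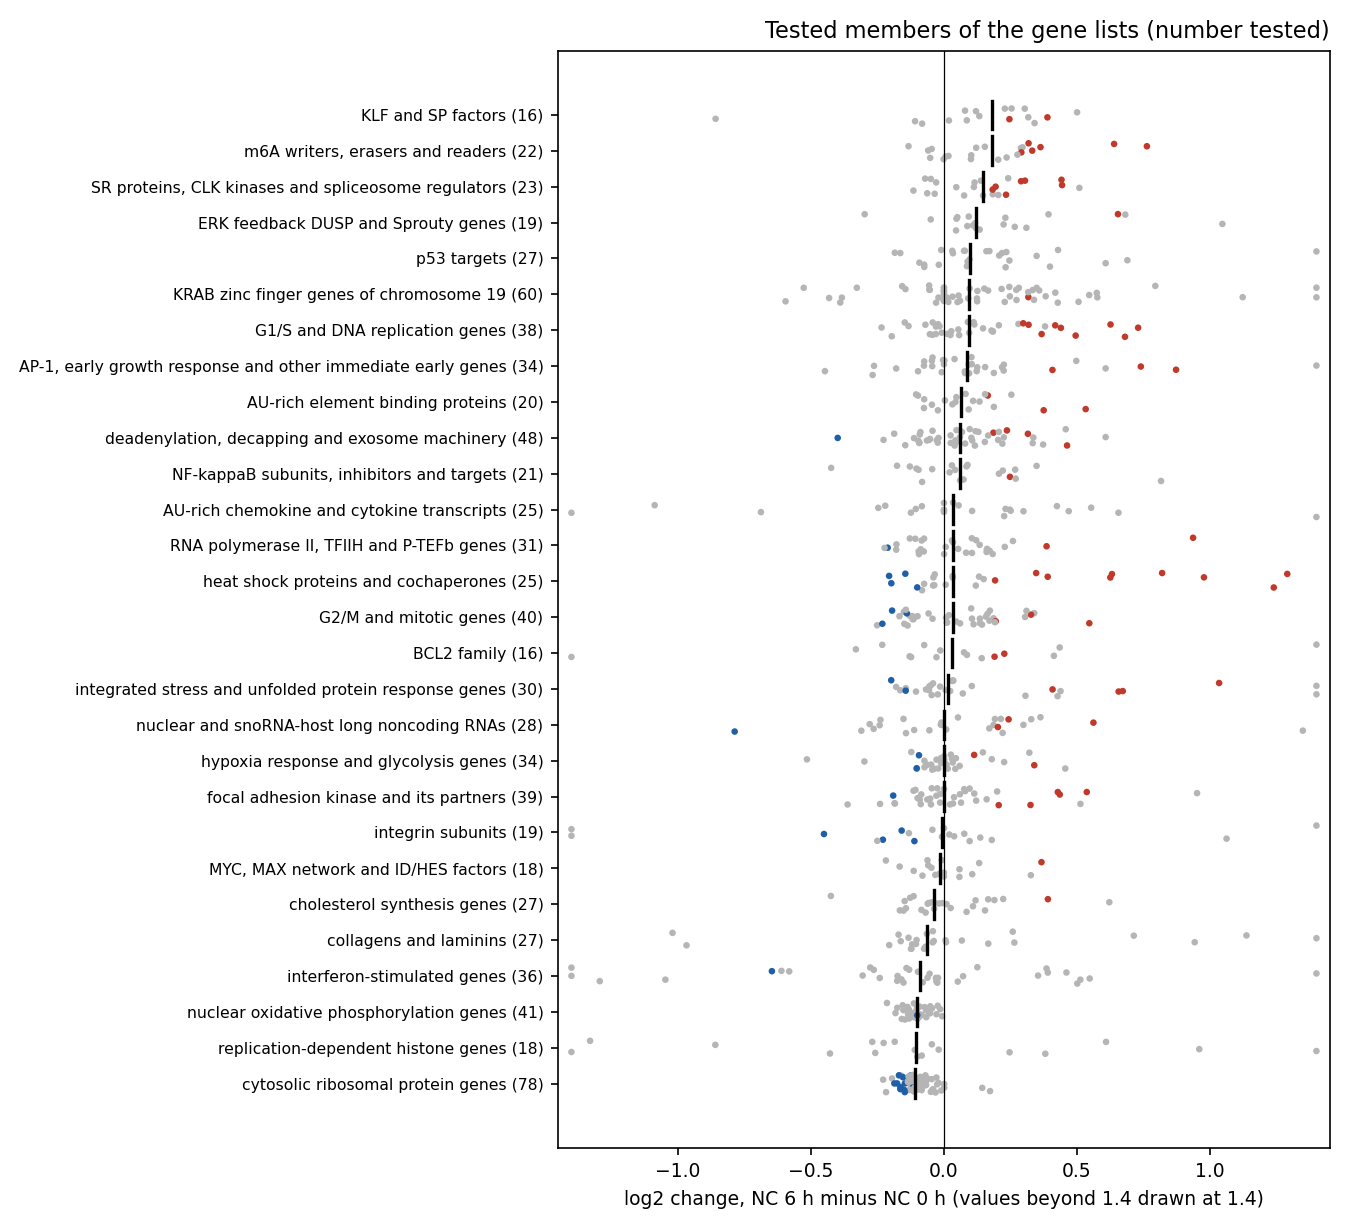
Each point is a tested member of a gene list (rows; number tested in parentheses), placed by its log2 change from NC 0 h to NC 6 h (x axis); red points rose, blue points fell, grey points did not pass, and black bars are list medians. Heat shock genes spread from -0.21 to 1.29 among those that passed, whereas ribosomal protein and oxidative phosphorylation genes lie in a narrow band with medians of -0.11 and -0.10.

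The libraries at the other labelled times, which entered the fit through its spread, filter and scaling but not through the contrast, placed the 783 genes in order. The 553 genes that rose had medians of 30.9 and 31.1 CPM in the 0 h libraries and 41.7 and 40.6 CPM in the 6 h libraries. Their medians were 51.8 and 51.0 CPM at 2 h, 71.4 and 73.1 CPM at 4 h and 26.7 and 27.1 CPM at 8 h. Of them 463 (83.7%) were highest at 4 h, against 37.0% of all genes tested, and 74.9% were lowest at 8 h, against 28.8% of all. The 230 genes that fell ran the other way, with 226 and 232 CPM at 0 h, 194 and 198 CPM at 6 h, 152 and 145 CPM at 4 h and 255 and 260 CPM at 8 h. Of them 82.6% were lowest at 4 h and 72.6% highest at 8 h, against 34.7% and 26.4% of all genes tested. Among all genes of at least 10 CPM these shares were 50.3% and 38.7%. In both classes the labelled times thus ranked 4, 2, 6, 0 and 8 h, a rank that uses the 0 h and 6 h values that chose the genes.

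**Figure D4:**
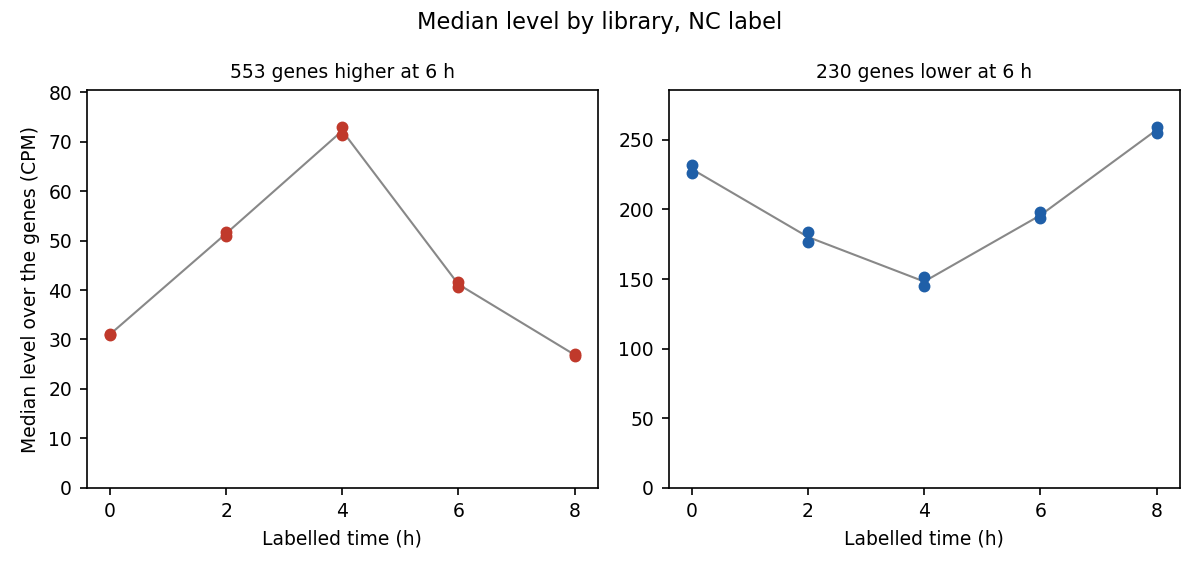
Median level (CPM, y axis from 0) over the 553 genes higher and the 230 genes lower at 6 h in each of the 10 libraries labelled NC, by labelled time (h, x axis); grey lines join the means of the medians. The risen genes peak at 4 h near 72 CPM and the fallen genes have their lowest medians there.

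Steps to the neighbouring labels were larger than the step from 0 h to 6 h. Between NC 4 h and NC 6 h, 3965 genes were higher at 6 h (22.4%) and 4279 lower (24.2%), 46.5% together. Between NC 6 h and NC 8 h, 1532 were higher at 8 h (8.65%) and 1709 lower (9.65%), 18.3% together. These comparisons share the 6 h libraries with the main one, so their overlap is not given. FOS changed by -6.15 from 4 h to 6 h, and its change from 6 h to 8 h was -0.50 (SE 0.14, adjusted p = 0.0106).

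The genes that rose differed from those that fell in gene structure, which the test did not use. Genes annotated under 1 chromosome name, which need not be 1 locus, were described by exonic bases per exon block. This is the merged exon length divided by the number of blocks. The median was 491 bases for genes that rose, 233 for genes that fell and 365 for all. Genes of at least 10 CPM were divided into 5 bins of equal size by this length: the share that rose was 1.53% in the bin with the shortest blocks and 8.88% in the one with the longest, and the share that fell was 3.76% and 0.823%. Level moved with it: the median level was 62.8 CPM with the shortest blocks and 32.5 CPM with the longest. Across 8502 genes Spearman's rho between block length and log2 change was 0.27, that between level and change -0.23 and that between level and block length -0.19. These are descriptions across genes of the same libraries, which are not independent replicates, and the part of level in the relation was not tested.

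The KO libraries at the same labels entered the NC comparison through the shared spread, filter and scaling, not through the contrast. They gave more calls: 3495 genes were higher at 6 h (19.7%) and 4958 lower (28.0%). Of the 553 genes that rose under NC, 408 also rose under KO (73.8%) and 40 fell. Of the 230 that fell, 197 also fell under KO (85.7%) and 5 rose. The genes that fell were abundant, so shares among genes of at least 10 CPM are given too. At that level 92.2% of the genes that fell under NC also fell under KO, against 49.7% of all. Of those that rose under NC, 74.2% also rose under KO, against 20.4% of all. Across 8994 genes of at least 10 CPM, Spearman's rho between the 2 changes was 0.53, as a description with all genes sharing the same 8 libraries. The difference of the changes itself was called in 5687 genes (32.1%), with the NC change above the KO change in 3615 (20.4%) and below it in 2072 (11.7%). With ribosomal scaling this split was 96 and 5864.

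HSPA1A was one of the genes that differed: under KO it stood at a log2 change of 0.00, and the NC change exceeded it by 1.29 (adjusted p = 7.87e-12). With ribosomal scaling the difference was 0.75 (adjusted p = 1.91e-06). HSPA1B (0.74) and BAG3 (0.66) also had larger changes under NC, but with ribosomal scaling the differences were 0.20 (adjusted p = 0.256) and 0.12 (adjusted p = 0.57), and neither passed on the molecule scale. XBP1 had the larger change under KO (2.22, difference -1.19), as did YTHDF2 (2.28, difference -1.51) and CCN1 (3.86, difference -3.12). MALAT1 went opposite ways, -0.79 under NC and 1.12 under KO, a difference of -1.90 (adjusted p = 7.29e-23). CDK7 had 0.94 and 0.96, with a difference of -0.02 (adjusted p = 0.99), which was -0.56 (adjusted p = 0.0133) with ribosomal scaling. Of 34 immediate early genes 29 rose under KO, against 19.7% of all genes tested, with a median of 2.76. The change differed in 27 of them, always with NC below KO, against 11.7% of all genes tested. All 78 ribosomal protein genes fell under KO, against 28.0% of all genes tested and 49.7% of those of at least 10 CPM. Their median under KO was -0.67. Among the 12 genes with the largest differences, DDIT4, a hypoxia- and stress-induced inhibitor of mTORC1, had at least 1 CPM in all 4 groups (-4.96). The other 11 had a group under 1 CPM, and a fitted fold is no bound there. SFRP1, for example, had 0 and 0 counts at NC 0 h and 14 and 2 at NC 6 h, with 2910 to 3977 in the KO libraries. MATK, a kinase gene, had 1996 to 2501 counts in the 4 NC libraries and 0 to 10 in the KO libraries.

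**Figure D5:**
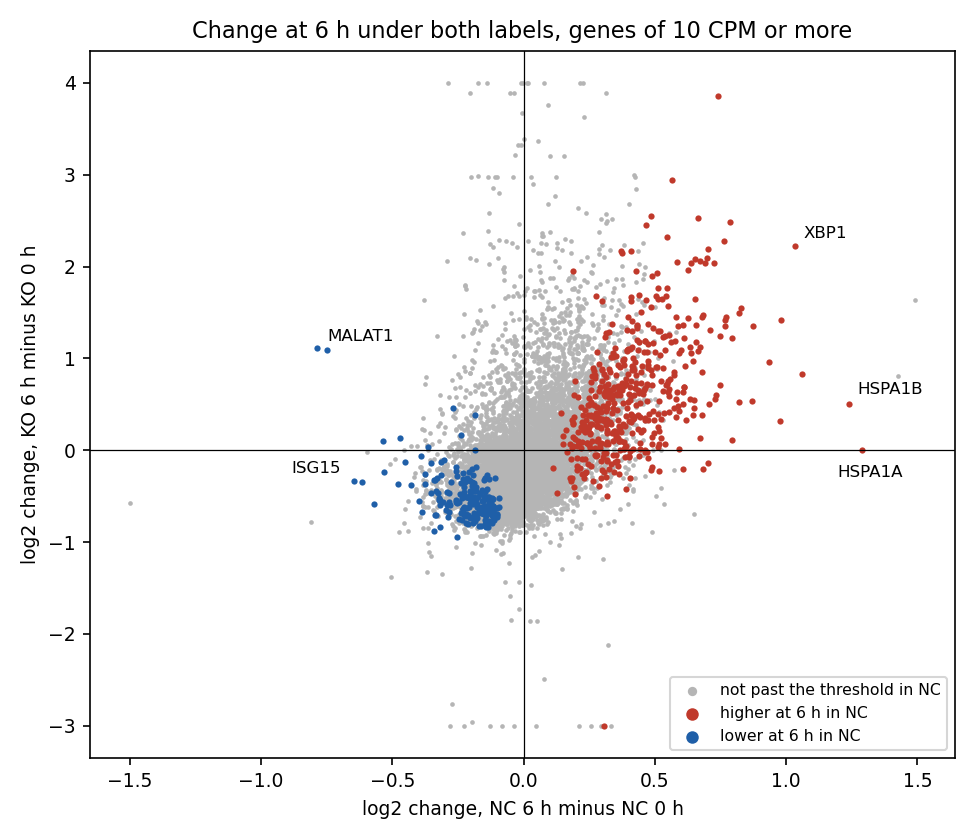
Log2 change from 0 h to 6 h under the NC label (x axis) and the KO label (y axis) for genes with a mean of at least 10 CPM in the 4 NC libraries; red and blue mark genes called higher and lower under NC, and values beyond 1.5 on x, 4 above or 3 below on y are drawn at those limits. Most red points lie above 0 under KO and most blue points below, and MALAT1 has opposite signs.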

How the data were processed

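PolyA RNA of the cells was sequenced. STAR, RSEM, Bowtie2, deepTools and hg19 are named, without roles or versions, in the submitters' processing notes, and annotation and strand use are not stated there. The authors gave counts of reads, RPKM and a log2 molecule value for 43682 genes in each library, per the file headers. A straight line of log2 RPKM was fitted to the log2 molecule value the authors deposited, with its own slope and intercept in each library. How closely the values follow the line was not measured. The origin of the deposited molecule values is not stated. Deposited RPKM served that fit.

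Counts of 20 libraries (19177934 to 25768060) were fitted in R 4.3.3 with edgeR 4.0.16, as 1 mean per label and time, after its filterByExpr filter and with TMM scaling. Contrasts were tested by the quasi-likelihood F test (robust), adjusted by Benjamini-Hochberg, at 0.05. SEs come from the change and its F value. Levels are CPM after TMM scaling. Library sizes had no rows without a gene. The NC 6 h test was also run on counts simulated from the NC 0 h means, with changes balanced in both directions. That run does not test the scaling or a difference between NC and KO. DESeq2 1.42.0, other scalings and filters, limma 3.58.1 on the deposited log2 molecule values, a replicate block and leaving out each library were the alternatives. Replicate numbers did not pair libraries: deviations of same-numbered NC 0 h and 6 h libraries correlated at -0.0017.

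The comparison and the 34 gene lists were chosen with earlier results of these data known. Named were 9 fixed genes, the 12 largest rises and falls (at least 10 CPM, ranges apart), up to 4 called members per list, and the 6 largest differences from KO each way. Further called list members were named after their values were seen. A further called list member is not reported here. Y-linked genes and XIST, steady-state and crosslinking samples were not used. Of the 43682 symbols, 42335 were current in the RefSeq table, 408 were updated and 939 kept.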

Additional observations from a re-analysis of the deposited data

Results flagged for a closer look

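The change from 0 h to 6 h differed between the NC and KO labels in 5687 genes by edgeR's test of the difference, and the values here are the NC change minus the KO change on the log2 scale. Among early-response genes the difference was -3.24 for MYC, -3.34 for JUN, -3.05 for IER2 and -1.76 for MCL1. Of these, MCL1 had an NC change past the threshold. DDIT4 had -4.96. Among the genes with the largest NC rises it was 1.29 for HSPA1A, 0.74 for HSPA1B and 0.66 for BAG3, but -1.19 for XBP1, -0.48 for CCN2, -0.72 for TNFRSF1A and -0.67 for ATG101. Among the falls it was -1.90 for MALAT1, -1.84 for TALAM1, -0.64 for IFT140 and -0.61 for TSTD2. The abundant mRNAs GAPDH and ACTB differed by 0.53 and 0.37, which did not hold with ribosomal scaling; nor did the differences of HSPA1B and BAG3.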

How the results depend on the processing

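The count of 783 genes was 1057 with RLE scaling, 1022 without the filter on low counts, 843 in a fit of the 10 NC libraries and 768 with a replicate block. DESeq2 gave 1389 (571 higher, 818 lower), ribosomal scaling 1582, the molecule scale 6952, a fit of the 2 groups alone 1245, and a log2 change of at least 1 kept 62. Without 1 library at a time it was 328 to 351, a fall shared by all 4 libraries, with the lone library assumed to vary like the other groups. Of 87 named genes past the threshold, 31 passed in all 4 of these runs, 34 in 1 to 3 and 22 in 0. Of the 553 and 230 genes, DESeq2 kept 519 and 218, RLE scaling 480 and 230, ribosomal scaling 553 and 35 and the molecule scale 24 and 221. The NC and KO difference was called in 5446 genes with DESeq2, in 2493 on the molecule scale, in 5641 with a replicate block, and in 4941 to 5061 with a library left out. Without the filter its split was 2073 and 2586. NC 8 h against 6 h gave 5265 with ribosomal scaling, 9771 on the molecule scale and 1993 to 2633 with a library left out; NC 6 h against 4 h gave 7064 to 7288. With RLE scaling the first of these split into 2271 higher and 1456 lower, and the second into 4618 and 3916. On the molecule scale these 6 h values had the opposite sign: MCL1 -0.37, JUND -0.13, MGA -0.10, SP1 -0.11, KLF13 -0.28, RELA -0.30, BCL2L1 -0.33, ZNF146 -0.20, EGLN1 -0.20, LDHA -0.63, SQLE -0.12, CEBPG -0.02, CDC6 -0.02, KIF23 -0.20, NORAD -0.03, NEAT1 -0.32, TUG1 -0.34, CRK -0.10, BCAR1 -0.01, CRKL -0.16, PCBP1 -0.47, CNOT8 -0.03, DDX6 -0.18, EXOSC2 -0.34, ALKBH5 -0.18, ZC3H13 -0.12, POLR2D -0.10, SRSF4 -0.08, SRSF5 -0.14, TRA2A -0.24, PRPF4B -0.25. With ribosomal scaling GAPDH had 0.01, ATP5F1B 0.01, ENO1 0.02 and ITGB1 0.00, and the NC and KO difference was -0.50 for KHSRP, -0.01 for GAPDH, -0.17 for ACTB and -0.39 for PAN2. The cause of these moves was not tested beyond the scale itself. A replicate block ended the calls of DNAJC4, ITGB1, EXOSC2 and SFRP1 and made that of ACTB. With 2 libraries a group, genes at a few counts cannot be ranked by fold.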
